A study of Mus musculus with 4 samples.

Results

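Tight junctions were examined here through 9 genes, the claudins Cldn1, Cldn4, Cldn7, Cldn8 and Cldn12, occludin (Ocln), the scaffold ZO-1 (Tjp1), the adhesion molecule JAM-A (F11r) and cingulin (Cgn), in basal cells sorted from mouse tail epidermis. The members were all probe sets, groups of oligonucleotides on the array that report 1 transcript, whose platform gene symbol was 1 of these 9. They numbered 16 of 45037 probe sets, and the 9 genes were among 18193 named genes. Of the 16 probe sets 10, from 7 of the genes, were bright enough to be tested. The values are log2 RMA values, in which a difference of 1 unit is a 2-fold difference.

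Tight junctions seal the space between neighbouring epithelial cells and limit the passage of water, ions and solutes. Claudins and occludin span the membrane and meet their partners on the next cell, JAM-A adheres beside them, and ZO-1 and cingulin tie this membrane complex to the actin cytoskeleton. In mouse epidermis the functional barrier lies in the granular layer, while several of its proteins are already made in the layers beneath, and mice without claudin-1 die soon after birth from loss of water through the skin.

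The arrays compare 2 InvCREER samples with 2 K14CREER samples, from mice on a CD-1 background. All of them carried the RosaYFP reporter, which Cre recombinase switches on. In InvCREER mice the tamoxifen-inducible Cre was driven by the involucrin promoter, and in K14CREER mice by the keratin 14 promoter. Living YFP-positive cells high in alpha6 integrin and negative for CD34 were collected, at 3.5 days by the sample titles and 4 days by the treatment protocol. InvCREER mice received 10 ug of tamoxifen and K14CREER mice 1 ug, so Cre driver and dose cannot be told apart. Whether the replicate arrays come from different mice is not given in the labels. The p-values therefore cover the spread among these samples only, part or, in K14CREER, all of which may be technical. The 2 InvCREER arrays differed in sex-linked genes, given below. With 2 arrays against 2 the smallest 2-sided p of an exact permutation test is 0.333, and the tests below rest instead on limma's variance model across all probe sets.

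Basal keratinocyte markers were bright on every array, but the sorted cells did not match their label in every respect. Cd34, a marker for which they were sorted as negative, was at 3.88 and 3.66 in InvCREER and 6.07 and 3.59 in K14CREER, and was not tested. Itga6, the alpha6 integrin gene, was at 11.62 and 11.77 in InvCREER and 12.38 and 12.41 in K14CREER. The 7 basal keratinocyte markers averaged 12.1 and 11.9 in InvCREER and 12.8 and 12.7 in K14CREER, and all 7 had lower means in InvCREER. The 9 suprabasal markers averaged 10.2 and 10.5 in InvCREER and 9.21 and 9.53 in K14CREER. Ivl, the involucrin gene and 1 of these 9, was at 4.78 and 5.06 in InvCREER and 4.58 and 6.23 in K14CREER. Its mean over the arrays lay below the intensity filter, and its line mean was lower in InvCREER. The array InvCREER 1 stood apart from the other arrays in 3 ways. Its Y-linked Eif2s3y was at 7.49, against 9.89 to 10.25 on the other 3 arrays. Its Actb probe set near the 3' end exceeded that near the 5' end, a measure of RNA integrity, by 1.24 log2 units against 0.684 to 0.941. Its 9 sebaceous gland markers averaged 10.7 against 7.33 to 9.11. Xist, a gene of female cells, was at 12.56 and 8.26 in InvCREER and 7.25 and 5.44 in K14CREER, without overlap of the lines. Y-linked Uty was at 4.70 and 7.85 in InvCREER and 7.19 and 7.48 in K14CREER. Kdm5d, also Y-linked, was at 5.04 and 8.09 in InvCREER and 7.01 and 7.74 in K14CREER. The part of sex in the differences between the lines was not tested.

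Most of the 9 member genes lay higher in InvCREER than in K14CREER cells, and none of those tested passed the test across the whole array. The 45 other tested tight junction genes, given below, were mixed, with 26 higher and 19 lower means and a median difference of 0.06. Cldn1 was 2.06-fold higher, Ocln 1.99-fold and Tjp1 1.69-fold, while Cldn12 and F11r differed by 1.27-fold and 1.15-fold and Cldn4 by -0.03 in log2 units. limma called 0 of the 10 tested probe sets at a Benjamini-Hochberg adjusted p under 0.05, where 0.959% of all 22519 tested probe sets were called. Cldn8 passed the intensity filter only through its InvCREER arrays, its K14CREER mean being below the filter value, so that no fold is given for it and it is left out of the counts that follow. Of the other 9 tested probe sets 4, from Cldn1, Ocln and Tjp1, had an unadjusted p under 0.05, against 13.2% of the 21494 tested probe sets with both line means at or above the filter. In 8 of the 9 the lines did not overlap and InvCREER was the higher, against 19.4% of those 21494, and in 2 the nearest arrays of the lines lay 1.5-fold or more apart in that direction, against 2.64%. The median difference of the 9 was 0.76 in log2 units, beside -0.01 over the same 21494. These 9 probe sets come from 6 genes, so they are not independent. The members were chosen with earlier results of these data known, and Cldn8 was left out after the data were seen. The member shares are therefore descriptions. With 1 probe set per gene 3 of the 6 had an unadjusted p under 0.05 by limma, against 16.1% of all 11270 tested genes. In 5 of the 6 the lines did not overlap and InvCREER was the higher, against 21.3%, and the median difference was 0.55. Unlike those for probe sets, these shares over all genes include genes with a line mean below the filter. In sorted bulk cells, more cells of a type and more RNA per cell cannot be told apart.

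**Figure D1:**
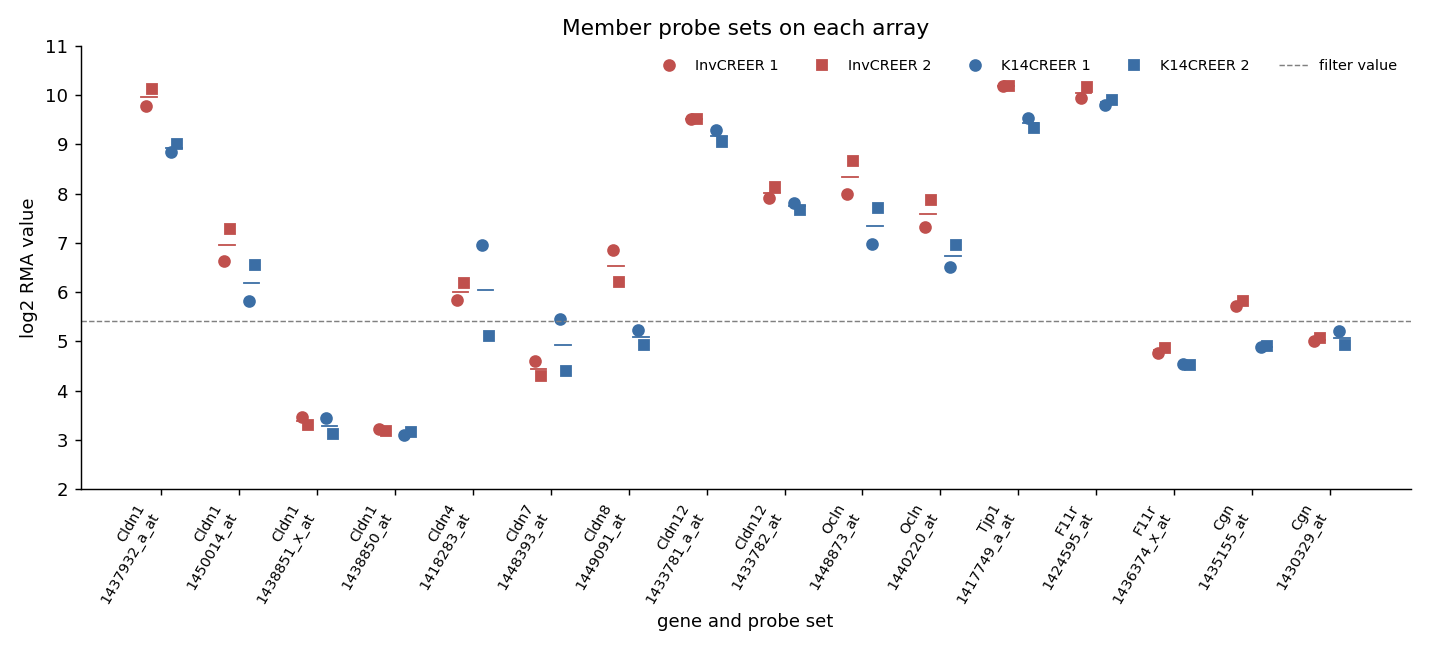
Log2 RMA value of each of the 16 member probe sets (x axis) on each array: red for InvCREER and blue for K14CREER, circles for array 1 and squares for array 2, short lines for line means, and a dashed line for the filter value of 5.42. The lines overlap for Cldn1 (1438851_x_at), Cldn4, Cldn7 and Cgn (1430329_at), and Cldn4 is widest apart within K14CREER. For every other probe set both InvCREER arrays lie above both K14CREER arrays, by only 0.01 log2 units for Cldn1 (1438850_at).

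The sequences around the transcription start sites of 8 of the 9 genes were taken from RefSeq on GRCm38.p6, as 12 windows of 250 bases before and 50 bases from the start. Cldn8 is not among them. They were searched on both strands for 4 motifs: the Grainyhead motif AACNGGTT, the AP-1 motif TGANTCA, the Snail-type E-box CAGGTG and the GC box GGGCGG. Of 32851 windows of the same length across the genome 2.09% held the Grainyhead motif, 7.81% the AP-1 motif, 20.2% the E-box and 35.7% the GC box. Among the 12 member windows, some of which overlap as neighbouring starts of 1 gene, 1 held the Grainyhead motif, 2 the AP-1 motif, 5 the E-box and 10 the GC box. No match overlapped another. The windows of 4 genes are given below, with every match in capitals and all else in lower case: Cldn1 and Ocln as transmembrane members with larger differences, Cgn as the member with the Grainyhead match, and Cldn4 as the member whose arrays disagreed within a line. They lie on the minus strand at chr16:26371790-26372089 (Cldn1), chr13:100552669-100552968 (Ocln, the outer of its 2 listed starts), chr3:94786433-94786732 (Cgn) and chr5:134946885-134947184 (Cldn4), and are written 5′ to 3′ along the gene.
Cldn1: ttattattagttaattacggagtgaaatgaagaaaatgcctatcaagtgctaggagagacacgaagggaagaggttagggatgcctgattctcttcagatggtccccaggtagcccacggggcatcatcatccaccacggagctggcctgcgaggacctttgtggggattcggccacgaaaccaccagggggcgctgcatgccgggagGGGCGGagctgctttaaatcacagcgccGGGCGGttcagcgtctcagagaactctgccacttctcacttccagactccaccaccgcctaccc
Ocln: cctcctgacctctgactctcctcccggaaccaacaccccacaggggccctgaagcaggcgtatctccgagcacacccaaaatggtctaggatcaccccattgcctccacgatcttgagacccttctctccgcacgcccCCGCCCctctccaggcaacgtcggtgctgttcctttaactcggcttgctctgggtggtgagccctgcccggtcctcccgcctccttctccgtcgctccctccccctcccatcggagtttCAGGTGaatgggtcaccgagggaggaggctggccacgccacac
Cgn: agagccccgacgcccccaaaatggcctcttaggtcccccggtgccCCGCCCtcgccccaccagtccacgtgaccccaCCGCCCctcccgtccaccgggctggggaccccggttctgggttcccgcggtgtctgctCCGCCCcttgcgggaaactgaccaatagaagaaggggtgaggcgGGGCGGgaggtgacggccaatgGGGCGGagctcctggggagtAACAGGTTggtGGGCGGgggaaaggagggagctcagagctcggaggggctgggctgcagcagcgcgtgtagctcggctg
Cldn4: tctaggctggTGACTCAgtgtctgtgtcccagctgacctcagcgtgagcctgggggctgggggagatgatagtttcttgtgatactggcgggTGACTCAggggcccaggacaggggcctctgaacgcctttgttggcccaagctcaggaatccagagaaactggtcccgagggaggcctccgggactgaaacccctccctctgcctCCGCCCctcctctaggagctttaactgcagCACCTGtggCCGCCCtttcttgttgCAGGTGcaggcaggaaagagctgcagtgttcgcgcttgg
Counted from the start site as 1, the Cldn1 window had GC boxes starting at -42 and -14 and none of the other motifs. The Ocln window had a GC box at -112 and an E-box at 8. Cgn, the most GC-rich of the 12 windows at 70.3%, had 6 GC boxes and a Grainyhead match, AACAGGTT, starting at -29. Cldn4 had AP-1 matches at -240 and -158, E-boxes at -14 and 12, and GC boxes at -44 and -5. A match is only a run of letters and shows no binding.

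Cldn1, the claudin that the epidermal barrier cannot do without, was at 9.79 and 10.14 on the InvCREER arrays, against 8.84 and 8.999 on the K14CREER arrays, on its brightest probe set 1437932_a_at. Both InvCREER arrays lay above both K14CREER arrays, with 0.79 log2 units between the nearest. The difference was 1.04 in log2 units (SE 0.21, 95% interval 0.53 to 1.55), with an adjusted p of 0.0876 by limma. The second tested Cldn1 probe set, 1450014_at, was at 6.63 and 7.28 in InvCREER and 5.82 and 6.55 in K14CREER, a difference of 0.77 (SE 0.35) whose interval included 0. There the nearest arrays of the lines were only 0.08 apart. The 2 remaining Cldn1 probe sets, 1438851_x_at and 1438850_at, lay between 3.10 and 3.46 on every array, near the lowest value of the table, 2.76, and were not tested. With each array left out in turn, the difference of 1437932_a_at stayed between 0.87 and 1.22. Its adjusted p ran from 0.0184 to 0.267 over 15 alternatives, and was 0.0377 when 1 probe set was tested per gene and 0.0470 with the filter at the 75th percentile, both by limma.

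Cldn8, a claudin known for paracellular sealing in kidney and gut, was read by 1 probe set. It was at 6.86 and 6.21 in InvCREER, against 5.24 and 4.93 in K14CREER. The lines were 0.97 log2 units apart at their nearest arrays, and both K14CREER values lay under the filter value of 5.42, where background limits the size of a difference. The InvCREER arrays alone carried it past the filter, so its difference and p-values are given as a description. The difference was 1.45 (SE 0.29, 95% interval 0.75 to 2.16; adjusted p = 0.0860 by limma). Cldn8 was higher on InvCREER 1 than on InvCREER 2, the reverse of Cldn1 and Ocln. Without InvCREER 2 the difference was 1.78, and without InvCREER 1 it was 1.13. By limma the adjusted p was 0.108 without the variance trend. It was 0.0306 with 1 probe set per gene, where 4.89% of all 11270 tested genes were called.

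Cldn12, a claudin that lacks the C-terminal motif by which most claudins bind ZO-1, differed little. Its brighter probe set, 1433781_a_at, was at 9.52 and 9.51 in InvCREER and 9.30 and 9.06 in K14CREER, a difference of 0.34 (SE 0.20, 95% interval -0.14 to 0.82). The other, 1433782_at, was at 7.91 and 8.13 in InvCREER and 7.80 and 7.68 in K14CREER, a difference of 0.28 (SE 0.23). In both the lines did not overlap, and neither was called (adjusted p = 0.549 and 0.717 by limma). The 95% interval of the second ran from -0.27 to 0.83.

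Cldn4 and Cldn7 did not share the pattern of Cldn1 and Cldn8. Cldn4, a claudin of suprabasal keratinocytes and many simple epithelia, was at 5.84 and 6.18 in InvCREER, against 6.96 and 5.11 in K14CREER. The K14CREER arrays lay on either side of both InvCREER arrays, with an SD of 1.31 against 0.24 in InvCREER. The difference was -0.03 with a 95% interval of -1.41 to 1.35 (adjusted p = 0.994 by limma), so that a difference of the size seen for Cldn1 in either direction was not detectable. It was 0.90 without K14CREER 1 and -0.95 without K14CREER 2. Cldn7, which is found along the lateral membrane as well as at the junction, lay below the filter at 4.59 and 4.29 in InvCREER and 5.46 and 4.41 in K14CREER, and was not tested. K14CREER 1 was the highest array for both claudins. It was also the highest for Krt8, at 7.44 against 5.08 to 5.34 on the other arrays, and for Krt18, at 7.69 against 4.20 to 4.40, which are keratins of simple epithelia and Merkel cells. The 5 Merkel cell markers averaged 4.59 and 4.67 in InvCREER and 5.82 and 4.47 in K14CREER, with Krt20, Atoh1 and Isl1 at or below 5.03 on every array. Their part in the Cldn4 and Cldn7 values was not tested.

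Ocln, the MARVEL domain protein of the tight junction strand, was read by 2 tested probe sets that gave similar differences. On 1448873_at it was at 7.99 and 8.67 in InvCREER, against 6.98 and 7.70 in K14CREER, and on 1440220_at at 7.33 and 7.86 against 6.51 and 6.95. The lines did not overlap on either, but in each the spread within a line was large beside the gap between the nearest arrays, which was 0.29 and 0.38. The differences were 0.99 (SE 0.35, 95% interval 0.14 to 1.84) and 0.86 (SE 0.29, 95% interval 0.15 to 1.57), with adjusted p of 0.277 and 0.259 by limma. On 1448873_at the difference was 0.63 without K14CREER 1, 0.66 without InvCREER 2, 1.33 without InvCREER 1 and 1.35 without K14CREER 2.

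F11r, which encodes JAM-A, an immunoglobulin-type adhesion molecule at the junction, was at 9.94 and 10.17 in InvCREER and 9.80 and 9.91 in K14CREER. The lines were 0.03 apart at their nearest arrays. The difference of 0.20 (SE 0.18, 95% interval -0.24 to 0.64; adjusted p = 0.756 by limma) had an interval that ended below the 1.04 of Cldn1. The F11r probe set 1436374_x_at lay below the filter, at 4.77 and 4.87 in InvCREER and 4.54 and 4.52 in K14CREER.

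**Figure D2:**
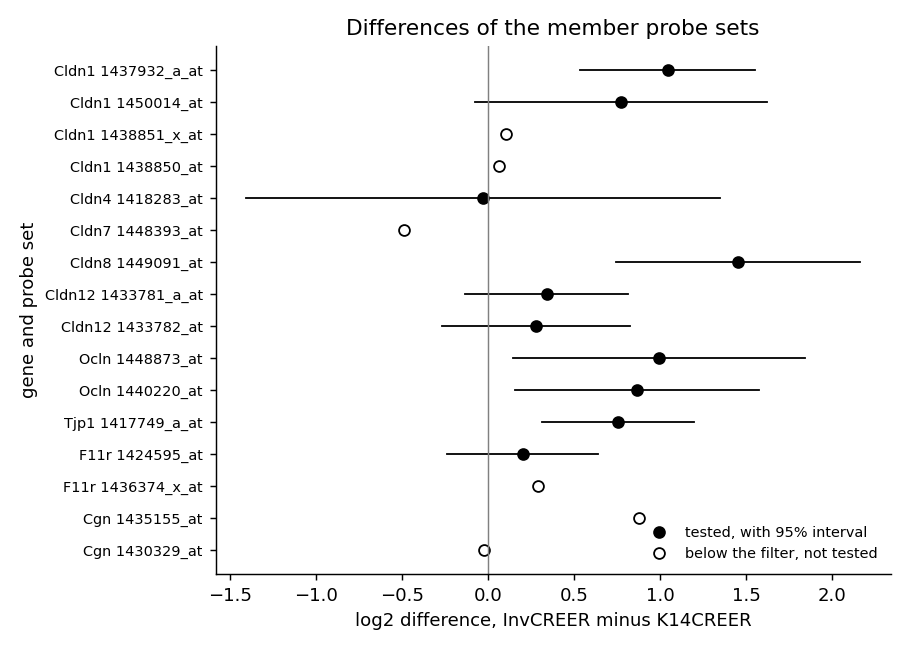
Difference of the line means in log2 units, InvCREER minus K14CREER (x axis), for each of the 16 member probe sets (y axis): filled points with 95% intervals from limma for the 10 tested, and open points for the 6 below the filter. The intervals of Cldn1 (1437932_a_at), Cldn8, both Ocln probe sets and Tjp1 lie above 0, without adjustment for the number of probe sets tested. Cldn8 passed the filter only through its InvCREER arrays, so its interval is a description.

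Of the cytoplasmic members, Tjp1, the ZO-1 scaffold that binds claudins, occludin and actin, was read by 1 probe set. It was at 10.19 and 10.20 in InvCREER, against 9.54 and 9.33 in K14CREER. The InvCREER arrays differed by an SD of 0.01 and the K14CREER arrays by 0.15, with 0.64 between the nearest arrays of the lines. The difference was 0.76 (SE 0.18, 95% interval 0.32 to 1.20; adjusted p = 0.126 by limma), and 0.65 to 0.86 with each array left out in turn. Cgn, the cingulin gene, lay below the filter on both of its probe sets and was not tested. On 1435155_at it was at 5.71 and 5.83 in InvCREER, above the filter value, against 4.89 and 4.90 in K14CREER, below it, so that the lines did not overlap and differed by 0.88. On 1430329_at it was at 5.01 and 5.07 in InvCREER and 5.20 and 4.92 in K14CREER, which overlap. With no filter the adjusted p were 0.149 and 0.990 by limma. Among the 6 member probe sets below the filter 3 were higher in InvCREER without overlap, against 15.1% of all 22518 such probe sets.

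The 7 tested genes differed in which array of a line was the higher. Cldn1, Ocln and F11r were higher on array 2 of both lines, and Cldn8 was higher on array 1 of both. After each profile was centred on its mean over the 4 arrays, the closest members were Cldn12 and F11r, at a root-mean-square distance of 0.17 log2 units, and Cldn1 lay 0.23 from both Tjp1 and Ocln. Cldn4 was the farthest, between 0.61 and 1.05 from the other 6. These distances rest on 4 arrays and are descriptions.

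Among all 11269 other tested genes, the profiles most like Cldn1 were those of Chit1, Smagp and Abtb2, at distances of 0.02, 0.05 and 0.06, and 19 genes lay within 0.1. Those most like Cldn8 were Pla2g2f, Cpeb2 and Prss8, at 0.05, 0.08 and 0.09, with 4 genes within 0.1. For Ocln they were Ndrg4, Lmo7 and AI413582, at 0.05, 0.09 and 0.09, with 4 genes within 0.1, and for Tjp1 they were Fbxo9, Krtap3-1 and Bmp2k, at 0.03, 0.03 and 0.05, with 39. Cldn4 had 0 genes within 0.1, and its nearest were Il6st, Atf3 and Clec2d at 0.14 to 0.18. The flatter profiles of Cldn12 and F11r had 320 and 815 genes within 0.1. Nfatc4, Tmem205 and Cacng2 were nearest to Cldn12, and Timm8b, Slc4a1ap and Caap1 to F11r.

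Other tight junction genes were read from 4 lists, with 1 probe set per gene, the brightest. Of 65 named genes 45 were tested, and 1 was called, Marveld1, lower in InvCREER, where 1.33% of all 11270 tested genes were called. The lines did not overlap for 14 genes higher and 9 lower in InvCREER, against 21.3% and 24.1% of all tested genes. The median difference over the 45 genes was 0.06, beside -0.01 over all tested genes. Of the 45, 26 had higher and 19 lower means in InvCREER.

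Of 17 named claudins outside the members, counting the claudin domain genes Cldnd1 and Cldnd2, 3 passed the filter. Cldnd1 was at 10.11 and 10.35 in InvCREER, against 9.85 and 9.69 in K14CREER, a difference of 0.46 (adjusted p = 0.347 by limma). Cldn22 differed by -0.39 and Cldn3 by -0.14, and neither was called. Cldn5, the claudin of endothelium, lay below the filter, at 5.32 and 5.71 in InvCREER and 5.15 and 5.44 in K14CREER, and 5 of the 6 endothelial markers lay below it on every array.

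Among the other transmembrane proteins Marveld1, a MARVEL domain protein, fell by 1.39 in log2 units (SE 0.14, adjusted p = 0.0167 by limma), the opposite direction to Ocln. Marveld1 was counted here by its place on the list, and whether its protein lies at tight junctions was not tested. It was at 10.36 and 10.31 in InvCREER, against 11.80 and 11.63 in K14CREER. This probe set, 1439381_x_at, is of a kind that can match several transcripts. The other 2 tested Marveld1 probe sets also did not overlap between the lines and differed by -1.14 and -0.93, with adjusted p of 0.203 and 0.143 by limma. Marveld1 no longer passed when K14CREER 1 was left out (-1.30, adjusted p = 0.0862 by limma), when K14CREER 2 was left out (-1.47, adjusted p = 0.0501), or when limma used no variance trend (adjusted p = 0.0644).

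Marveld2, or tricellulin, which seals the corners where 3 cells meet, lay in the direction of Ocln, at 8.44 and 8.63 in InvCREER and 6.93 and 8.02 in K14CREER, a difference of 1.06 (SE 0.38, adjusted p = 0.278 by limma). It was 0.52 without K14CREER 1 and 1.61 without K14CREER 2. Crb3, of the apical Crumbs polarity complex, differed by 0.90 (SE 0.26, adjusted p = 0.191). Clmp, a membrane protein related to the coxsackievirus and adenovirus receptor, differed by 2.33 (SE 0.66, adjusted p = 0.179), and its InvCREER arrays were far apart, at 8.82 and 6.79, against 5.94 and 5.01 in K14CREER. Without InvCREER 2 its difference was 3.34, and without InvCREER 1 it was 1.32. Clmp was highest on InvCREER 1, as were the sebaceous gland markers, and their part in its values was not tested.

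Of the 15 tested scaffold and adaptor genes 0 were called by limma. Tjp3, the ZO-3 scaffold and a paralogue of Tjp1, was at 8.88 and 8.42 in InvCREER, against 7.53 and 7.28 in K14CREER, a difference of 1.25 (SE 0.26, adjusted p = 0.0918). Mpdz, a claudin-binding protein with many PDZ domains, lay the other way, at 7.36 and 7.32 in InvCREER and 8.15 and 8.78 in K14CREER, a difference of -1.12 (SE 0.28, adjusted p = 0.134). Tjap1, a tight junction-associated protein, was at 7.68 and 7.59 in InvCREER and 8.70 and 8.64 in K14CREER, a difference of -1.03 (SE 0.21, adjusted p = 0.0918). In each of these the lines did not overlap. Amotl2, of the angiomotin family, differed by 0.84 (SE 0.32, adjusted p = 0.320). Tested with 1 probe set per gene, both Tjp3 (adjusted p = 0.0366) and Tjap1 (adjusted p = 0.0377) were called by limma. In that setting 4.89% of all 11270 tested genes were called. Without InvCREER 2 the Tjp3 difference was 1.48, and without InvCREER 1 it was 1.02. Of 19 tested polarity genes and regulators 0 were called, and the differences ran from -0.63 for Rapgef2 to 0.66 for Tiam1, with Prkcz at 0.64 and Dlg1 at 0.50. Without InvCREER 2 the Tiam1 difference was 0.87, and without InvCREER 1 it was 0.46. At an unadjusted p under 0.05 there were 3 scaffold genes higher and 2 lower, and 2 polarity genes higher and 2 lower, where 16.1% of all tested genes reached it in either direction.

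**Figure D3:**
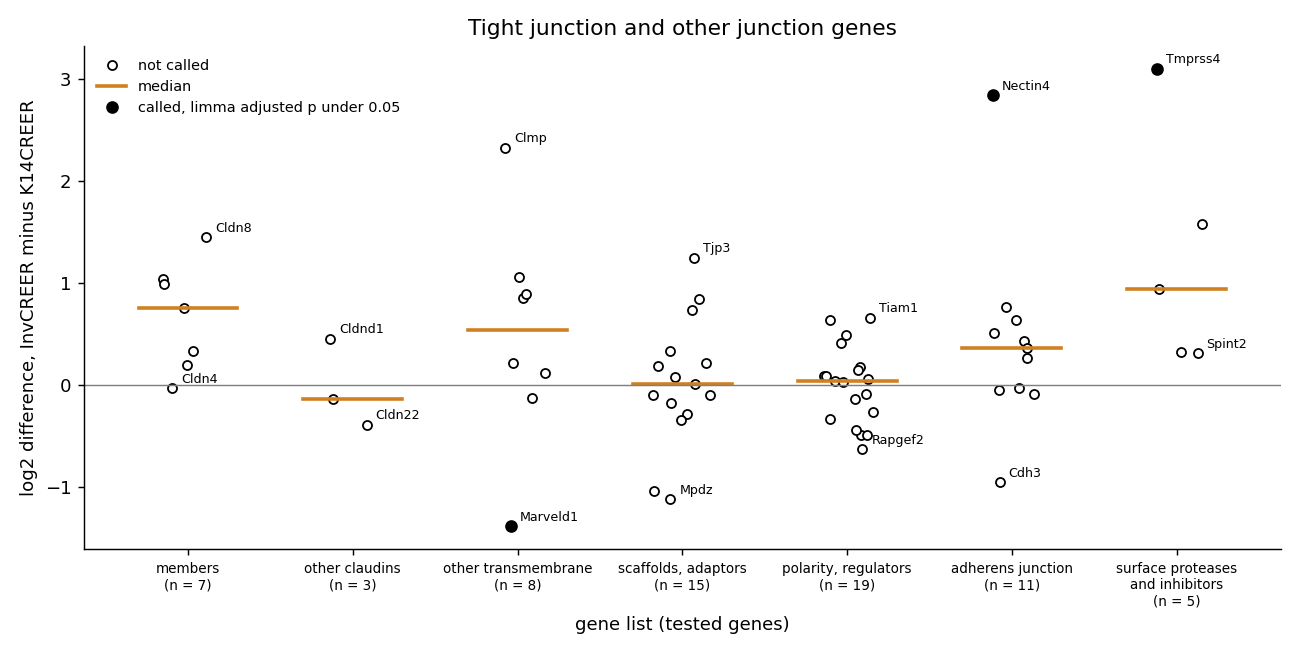
Difference in log2 units, InvCREER minus K14CREER (y axis), of each tested gene by list (x axis), at its probe set with the highest mean; orange lines are list medians, and filled points passed limma's adjusted p under 0.05. The 7 members have a median of 0.76, or 0.55 without Cldn8, Marveld1 is the filled point below 0, and Nectin4 and Tmprss4 are those above 0.

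Adherens junctions, the cadherin contacts that lie beside tight junctions, were set beside them. Of 11 tested genes Nectin4, an immunoglobulin-type adhesion molecule of epithelia, rose by 2.85 (SE 0.30, adjusted p = 0.0167 by limma), at 8.77 and 8.25 in InvCREER against 5.90 and 5.42 in K14CREER. A second Nectin4 probe set, 1428701_at, rose by 2.50 (adjusted p = 0.0121). The call of Nectin4 held with each array left out in turn (adjusted p = 0.000241 to 0.0463). Cdh3, the P-cadherin of basal keratinocytes, was at 7.72 and 7.28 in InvCREER and 8.49 and 8.42 in K14CREER, a difference of -0.95 (adjusted p = 0.147). Jup, or plakoglobin, differed by 0.77 and the catenin gene Ctnnd1 by 0.64, and neither was called. Without InvCREER 2 the Jup difference was 1.04, and without InvCREER 1 it was 0.50. The list median was 0.36.

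Membrane-anchored serine proteases and their inhibitors bear on tight junctions in mouse epidermis, where the loss of Prss8 (prostasin) disturbs occludin and the barrier. Tmprss4, a transmembrane serine protease, rose by 3.10 (SE 0.27, adjusted p = 0.0113 by limma), at 9.77 and 10.10 in InvCREER against 7.09 and 6.57 in K14CREER. Prss8 was at 7.17 and 6.46 in InvCREER, against 5.47 and 4.99 in K14CREER, a difference of 1.58 (SE 0.32, adjusted p = 0.0886). Prss8 and Cldn8 thus had similar differences over the 4 arrays, and both were higher on array 1 of each line. Like Cldn8, Prss8 passed the filter only through its InvCREER arrays, so these values too are a description. Without InvCREER 2 the Prss8 difference was 1.93, and without InvCREER 1 it was 1.23. Spint1, a Kunitz-type inhibitor of such proteases, differed by 0.94 and St14, or matriptase, by 0.32, and neither was called. Without InvCREER 2 the Spint1 difference was 1.30, and without InvCREER 1 it was 0.58.

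The array that was highest for a member was set against the marker lists. Cldn1 and Ocln were highest on InvCREER 2, as was the suprabasal list, whereas the sebaceous list (10.7 and 9.11 in InvCREER, 7.80 and 7.33 in K14CREER) and the Langerhans and myeloid list (7.14 and 5.87 in InvCREER, 5.31 and 5.08 in K14CREER) were highest on InvCREER 1. Cldn8 was highest on InvCREER 1. All 9 tested sebaceous and all 6 tested Langerhans and myeloid genes had higher means in InvCREER, and all 7 tested suprabasal genes had too, of which 5 were called. Ivl, a suprabasal marker that was not tested, had a lower mean in InvCREER. Cd207, the langerin gene, was at 6.77 and 5.74 in InvCREER and 5.16 and 4.99 in K14CREER. Of these genes, 2 sebaceous and 2 Langerhans and myeloid genes passed the filter only through InvCREER. The part of these cell types in the values of Cldn1, Cldn8, Ocln and the other members was not tested. The dermal fibroblast list (5.96 and 5.80 in InvCREER, 7.07 and 6.29 in K14CREER) was lower on both InvCREER arrays than on either K14CREER array, opposite to Cldn1, Cldn8, Ocln and Tjp1.

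**Figure D4:**
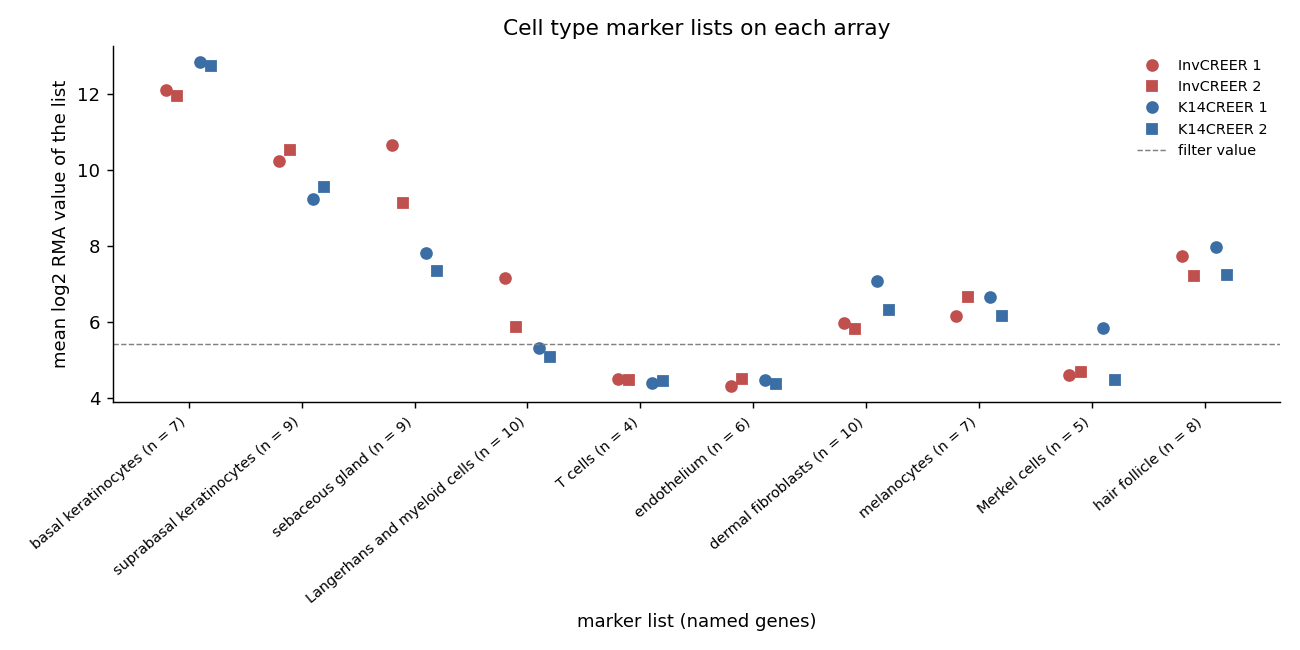
Mean log2 RMA value of each cell type marker list (x axis, with the number of named genes) on each array: red for InvCREER and blue for K14CREER, circles for array 1 and squares for array 2, with the filter value of 5.42 dashed. The sebaceous list is at 10.7 and 9.11 in InvCREER and 7.80 and 7.33 in K14CREER, and the suprabasal list is highest on InvCREER 2.

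**Figure D5:**
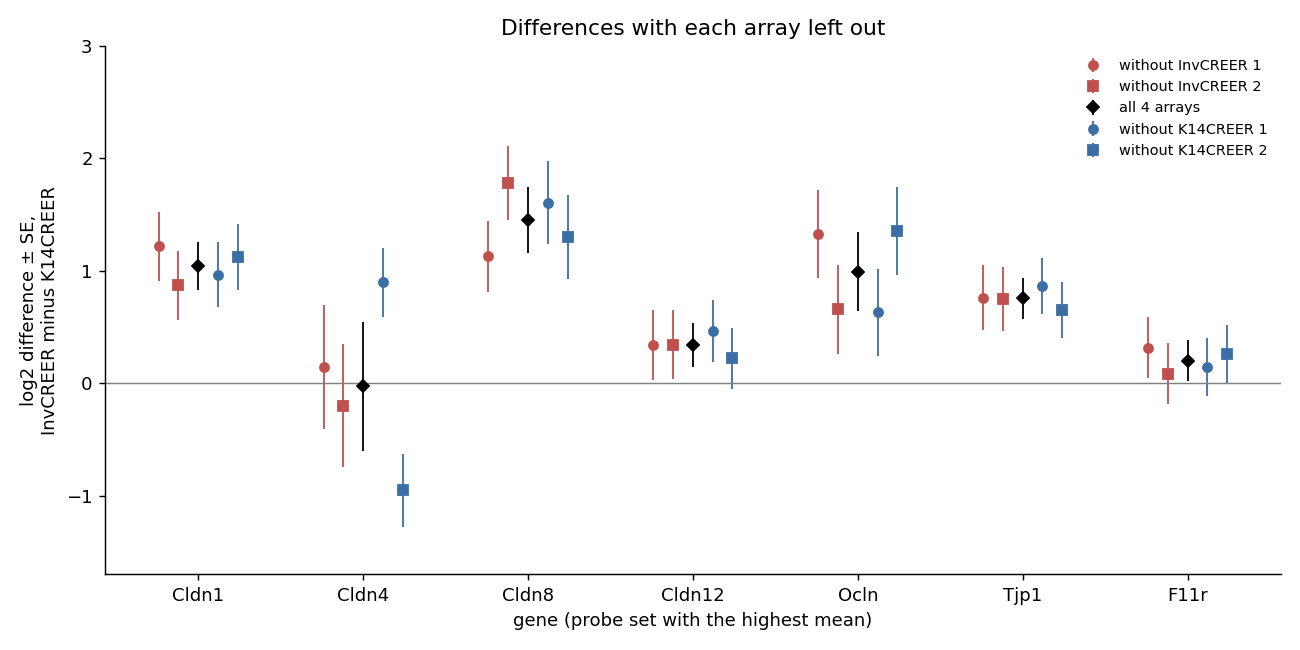
Log2 difference, InvCREER minus K14CREER, with its standard error (y axis) for the 7 tested member genes (x axis), with all 4 arrays (black) and with 1 array left out (red where an InvCREER and blue where a K14CREER array is left out). Cldn1, Cldn8, Cldn12, Ocln, Tjp1 and F11r stay above 0 throughout, and Cldn4 runs from -0.95 without K14CREER 2 to 0.90 without K14CREER 1.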

How the data were processed

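RNA was amplified and labelled by a 3' in vitro transcription method for Affymetrix arrays, per the labels' protocols. The authors deposited log2 values. RMA in Affymetrix Expression Console 1.1 made them, per the submitters' processing notes. The log2 scale was read from the values, which ran from 2.76 to 14.2 with array medians of 5.40 to 5.44. Because RMA gives all arrays the same distribution, a shift in RNA content per cell is not seen. The number of arrays limits the precision, and detection calls were not used here.

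Of 45101 probe sets 64 controls were set aside. The 22519 with a mean over the 4 arrays at or above the median, 5.42, were fitted in R 4.3.3 by limma 3.58.1, with eBayes and its mean-variance trend, without a block and 2-sided, adjusted over all of them by Benjamini-Hochberg and called under 0.05. Genes came from the platform annotation, updated by Entrez number through RefSeq (GRCm38.p6): 34945 probe sets had 1 symbol, 932 several and 9160 were unnamed here. Of 71 further tight junction genes listed 65 had a named probe set. Called list genes and the up to 4 tested genes per list with the largest absolute difference were named, with the 3 nearest profiles per tested member. The members and lists were chosen with earlier results of these data known. Alternatives covered the filter, variance model, array weights, scaling, array number as a block, each array left out, threshold, unit of testing and probe set kind. Figures used matplotlib 3.10.9.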

Additional observations from a re-analysis of the deposited data

How the results depend on the processing

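limma called 216 probe sets over the whole table, 0 of 10 member probe sets and 1 of 45 other tight junction genes. With each array left out in turn these counts ran from 82 to 981, from 0 to 1 and from 0 to 4. The array numbers are shared between the lines, but nothing in the labels pairs the arrays. The deviations of number 1 from the line means correlated at r = 0.38 across probe sets between the lines. With array number as a block 1390 probe sets (6.17%), 4 member probe sets (Cldn1 1437932_a_at, Cldn8, Ocln 1448873_at and Tjp1) and 8 list genes were called. At the 75th percentile filter the counts were 405 of 11260 (3.60%), 1 (Cldn1) and 3. With 1 probe set per gene they were 551 of 11270 (4.89%), 2 (Cldn1 and Cldn8) and 3, and with the mean of a gene's probe sets 450 (3.99%), 1 (Cldn8) and 3. At an adjusted p under 0.1 they were 692 (3.07%), 2 (Cldn1 and Cldn8) and 3. Cldn8 stands in these member counts although only its InvCREER arrays carried it past the filter, so its calls are a description. Without the variance trend 122 probe sets and 0 list genes were called, and without probe sets whose ID ends in _a_at, _s_at or _x_at 0 of 37 list genes, since Marveld1 is then represented by a probe set that was not called. For the counts from stricter filters or per gene, fewer features were tested; the cause was otherwise not tested. Under the other alternatives (no filter, robust variance, array weights, median centring and quantile normalization) each of the 3 counts stayed within 1.5 times. The Cldn4 difference changed sign to 0.14 without InvCREER 1 and 0.90 without K14CREER 1, and ran down to -0.95. No other tested member probe set changed direction in any of the 16 alternatives that could be run on it. With Cldn8, which passed the filter only through InvCREER, the counts of member probe sets at an unadjusted p under 0.05, without overlap, and 1.5-fold apart were 5, 9 and 3 of 10, against 4, 8 and 2 of 9 without it. Its omission was chosen after seeing the data. The brightness of Cgn, Cldn7 and 3 further member probe sets limits what the arrays can show of them.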
